A study of Mus musculus with 6 samples.

Results

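This report describes 53 genes of histone lysine modifier enzymes in KMWT1, a mouse glioma cell line, after knockdown of the transcription factor YY1. Members were defined by gene symbol, in a rule set when earlier results of these data were known. They are the families Kmt, Setd and Ehmt (18 genes), Kdm (16), Kat (8) and Hdac (11). Of 24982 gene symbols in the count tables, 55 matched these names, and 2 were left out because they had fewer than 60 counts over the 6 samples. These were Kdm4d with 2 counts and Kdm5d with 1, while the lowest member, Setd4, had 181. All 53 members passed the filter on low counts, which left 12148 genes to be tested. RNA-seq counts were compared between 3 samples (1 to 3) given a control siRNA and 3 samples (4 to 6) given siRNA against YY1, all taken 48 hours after transfection. The siRNA is described as SmartPool, a pooled reagent, and all cells were kept in DMEM with serum. All 6 samples are of 1 cell line, and the labels do not say whether the samples of a group were separate cultures. The p-values cover the spread of these 6 libraries alone, whose source may be technical.

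Enzymes of these families add and remove small groups on the lysines of histone tails. Methyltransferases of the Kmt, Setd and Ehmt families place methyl groups, some of which mark active promoters or enhancers and others silent chromatin, and Kdm demethylases take them off. Kat acetyltransferases loosen chromatin by acetylating lysines and Hdac deacetylases reverse this. YY1 is a zinc finger protein that binds DNA and is known to recruit both acetyltransferases and deacetylases, and inhibitors of several of these enzymes are studied in glioma.

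Samples held 15738457 (YY1 siRNA sample 6) to 20644057 (control siRNA sample 1) counts in genes, at which 3 counts equal 0.191 and 0.145 CPM (counts scaled to library size with TMM factors). Of 10 markers of glioma and neural progenitors, 5 stood at 10 CPM or more, among them Sox2 and Nes, while Olig2 and Fabp7 had no counts and Gfap and Slc1a3 stood under 1 CPM. Markers of neurons (5 of 7), oligodendrocytes (4 of 6), microglia and macrophages (6 of 7) and endothelium (4 of 5) were mostly under 1 CPM, with Cnp, Cd68 and Cdh5 as the 3 at 10 CPM or more. Of the markers that passed the filter on low counts, 0 had an unadjusted p under 0.05. Along the first principal component, with 44.2% of the variance, YY1 siRNA sample 6 stood apart, and along the second, with 18.7%, YY1 siRNA sample 4 did. In bulk RNA a change in the share of cells that express a gene and a change in RNA per cell cannot be told apart.

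Yy1 itself stood at 127, 128 and 126 CPM in control siRNA samples and at 81.2, 77.6 and 78.6 CPM in YY1 siRNA samples 4, 5 and 6. The groups did not overlap, and the knockdown was of similar depth in the 3 YY1 siRNA samples. The log2 fold change was -0.68 (SE 0.064, adjusted p 0.00154, edgeR quasi-likelihood test with Benjamini-Hochberg adjustment over all genes tested).

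No member passed the same test. With edgeR, 0 of 53 members reached an adjusted p under 0.05, where 0.00823% of all genes tested had one (1 of 12148, Yy1). DESeq2 (0.111% of the 17048 genes with any count) and limma-voom (0.00823% of 12148) called 0 members as well. At an unadjusted p under 0.05 there were 3 members with edgeR, Kat2b and Kdm7a with higher and Kdm2a with lower values in YY1 siRNA samples. The 3 are 5.66% of the members, against 10.8% of all genes tested. There were 2 with DESeq2 (5.53% of 17048 genes, which include those with few counts) and 3 with limma-voom (11% of 12148). The median log2 fold change of the members was -0.015, beside 0.00070 over all genes tested, and single members ranged from -0.19 (Kdm2a) to 0.23 (Hdac10).

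The 95% intervals bound the fold change of each gene singly, not of all members at once. They rest on the spread of these 6 libraries, with Yy1 RNA still at 62.3% of control. For 50 of 53 members the whole 95% interval of the fold change lay inside 1.5-fold up or down (94.3%, against 82.2% of genes tested), and for all 53 it lay inside 2-fold (100%, against 95.9%). The 3 members with wider intervals were Setd4, Kdm8 and Kmt2d. Setd4 and Kdm8 have few counts, with 20 to 39 and 31 to 47 per sample, whereas Kmt2d had 947 to 1860.

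**Figure D1:**
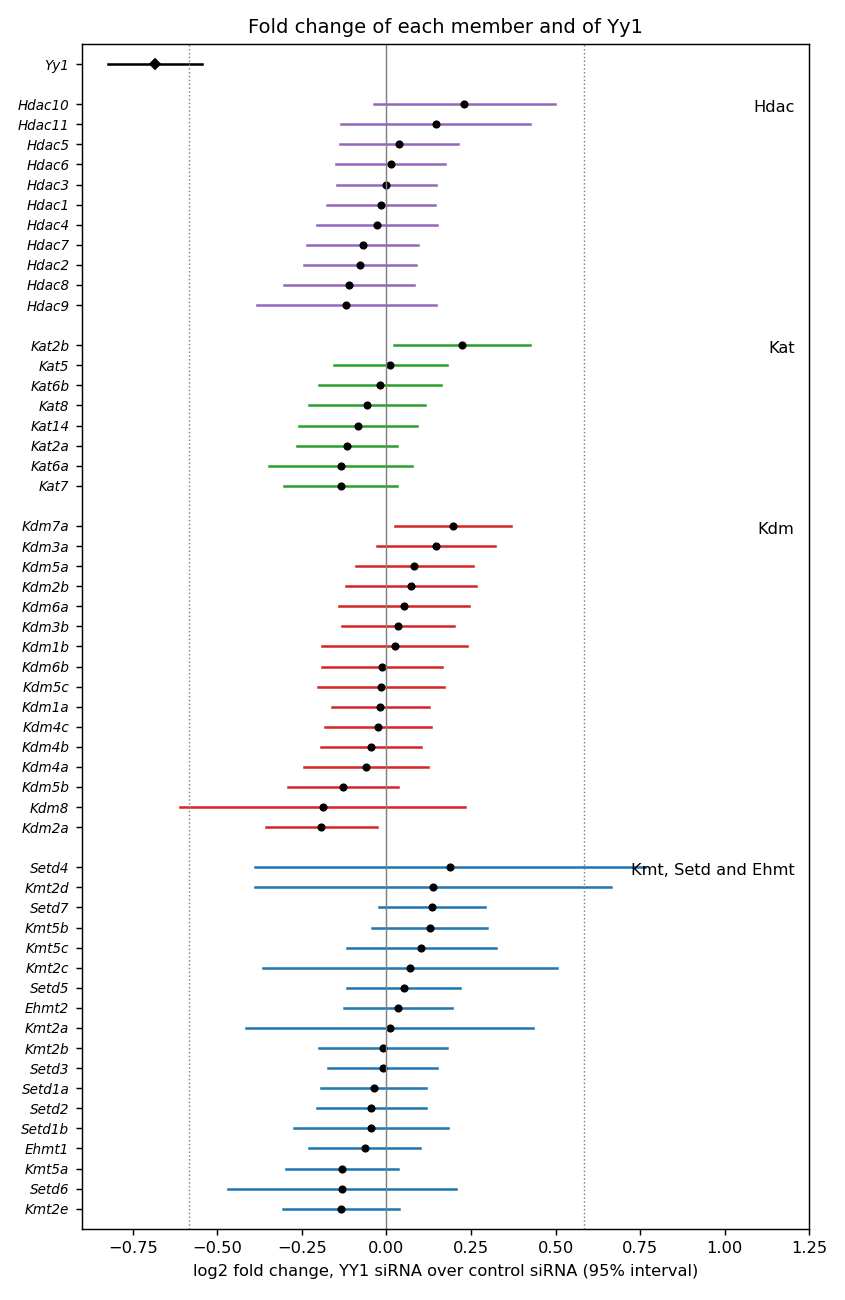
Log2 fold change of YY1 siRNA over control siRNA samples for the 53 members and Yy1 (x axis), with 95% intervals as bars and 1.5-fold in either direction as dotted lines. Members are ordered by fold change within each family. Yy1 lies at -0.68, and the members lie between -0.19 and 0.23.

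YY1 binds a motif with the core ATGG, so the promoter windows of the members were searched for it. RefSeq promoter windows (GRCm38.p6, the build also called mm10), from 250 bases before to 50 after a gene's start, were at hand for 41 of the 53 members. The letters AANATGGCG, on either strand, were in windows of 3 of these 41 (7.32%), Kat7, Kdm5c and Kmt2a, and of 6.16% of the 9576 tested genes with a window (2.76% of all 27025 genes in the table). The shorter letters AANATGG, which AANATGGCG holds within it, were in windows of 10 of 41 (24.4%), against 17.8% of tested genes. A match is a description of the letters and not a binding site. The windows of the 3 genes with the full letters are shown because they are the members where YY1 binding near the start could be asked about in other data. They are written 5′ to 3′ on the gene's strand with the match in capitals. Kat7 lies on the minus strand (chr11:95310197-95310496), Kdm5c on the plus strand (chrX:152232977-152233276) and Kmt2a on the minus strand (chr9:44881240-44881539).
Kat7: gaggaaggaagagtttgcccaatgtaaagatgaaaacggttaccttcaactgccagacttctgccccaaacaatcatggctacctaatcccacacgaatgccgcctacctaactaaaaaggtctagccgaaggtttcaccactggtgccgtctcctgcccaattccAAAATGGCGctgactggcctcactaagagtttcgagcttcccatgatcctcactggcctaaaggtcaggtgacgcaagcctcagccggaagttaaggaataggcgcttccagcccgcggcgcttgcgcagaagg
Kdm5c: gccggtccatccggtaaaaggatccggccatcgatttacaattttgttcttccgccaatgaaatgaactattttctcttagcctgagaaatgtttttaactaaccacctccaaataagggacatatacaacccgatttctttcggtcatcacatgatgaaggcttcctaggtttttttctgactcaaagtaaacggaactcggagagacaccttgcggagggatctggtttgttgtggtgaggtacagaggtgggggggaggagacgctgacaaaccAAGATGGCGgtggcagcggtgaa
Kmt2a: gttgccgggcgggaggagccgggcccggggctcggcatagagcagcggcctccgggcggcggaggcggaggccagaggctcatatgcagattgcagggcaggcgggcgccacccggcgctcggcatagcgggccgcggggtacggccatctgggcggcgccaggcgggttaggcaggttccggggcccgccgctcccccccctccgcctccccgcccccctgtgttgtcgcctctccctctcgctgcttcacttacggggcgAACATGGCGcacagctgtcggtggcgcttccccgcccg

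In Kat7 the match lies before the start, at bases -84 to -76 counted from the first transcribed base as 1. It lies after the start in Kdm5c, at bases 28 to 36, and in Kmt2a, at bases 13 to 21. The ATG of the Kmt2a match is an annotated start codon of the gene, and those of the other 2 matches are not. The log2 fold changes of these genes were -0.14 for Kat7, -0.02 for Kdm5c and 0.01 for Kmt2a, with adjusted p values of 0.520, 0.956 and 0.991 (edgeR).

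To compare genes with each other, CPM was divided by the exon length of the gene in kilobases (GENCODE M21). On this per-length scale the members ranged from 0.299 (Setd4) to 45.9 (Hdac5) CPM per kilobase as a mean over the 6 samples. The median per family was 6.13 for the methyltransferase families, 9.49 for the demethylases, 7.71 for the acetyltransferases and 10.6 for the deacetylases, beside 6.43 over 12037 genes tested with a gene model.

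**Figure D2:**
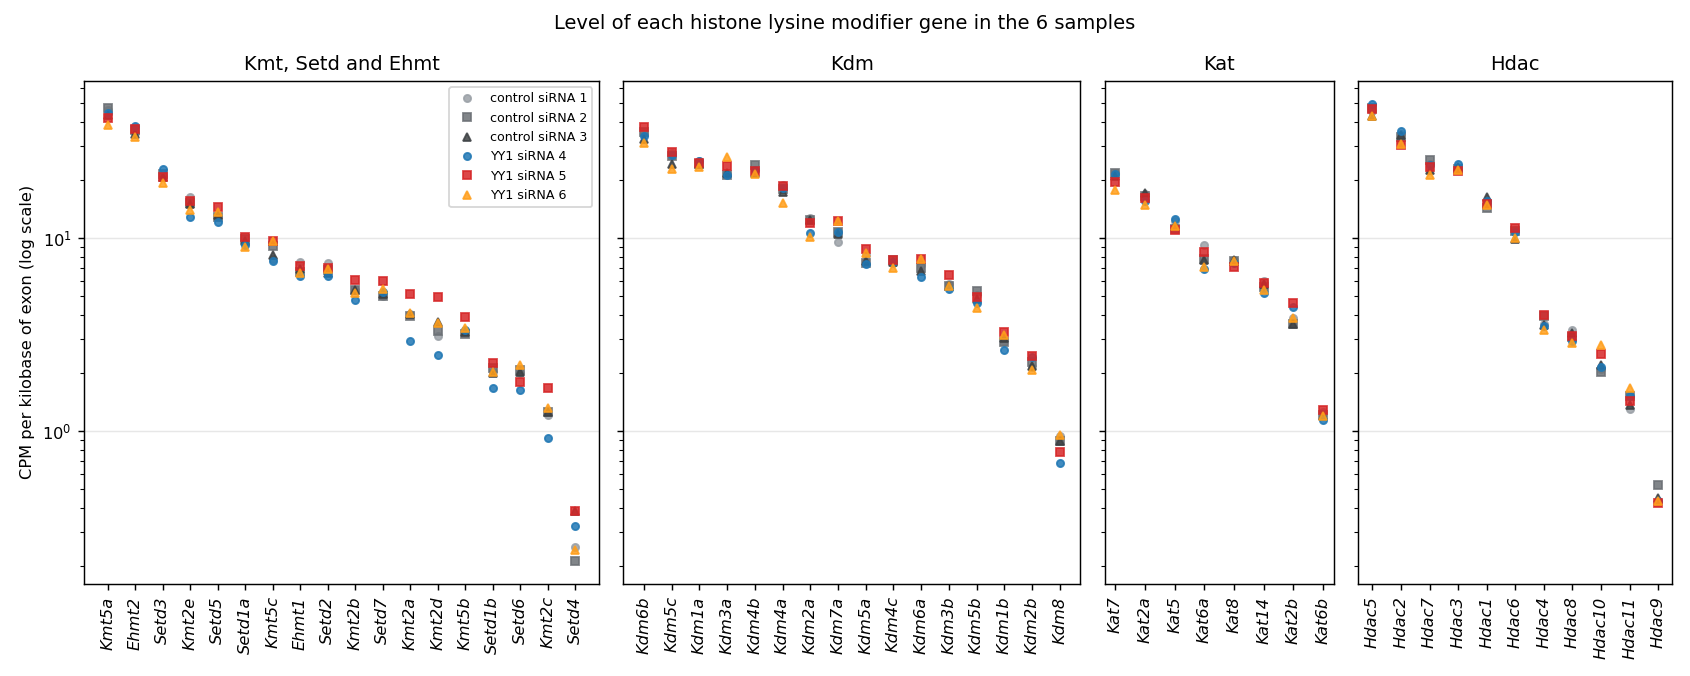
CPM per kilobase of exon (y axis, log scale) of each member in each of the 6 samples, with members ordered by their mean level within 4 family groups. The levels run from Hdac5 at 45.9 down to Setd4 at 0.299 CPM per kilobase, and the samples of the 2 groups overlap for most members.

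Among the methyltransferase families, 0 of 18 passed with edgeR, and 0 reached an unadjusted p under 0.05 (10.8% of all genes tested did). Their median log2 fold change was -0.00044, with 9 above and 9 below 0. The highest level per kilobase was that of Kmt5a, the enzyme that adds a single methyl group to lysine 20 of histone H4. It stood at 45.6 ± 1.99 CPM per kilobase in the controls and 41.6 ± 3.15 in YY1 siRNA samples (SD, n = 3). In CPM, its values were 246, 250 and 230 in the controls and 237, 221 and 204 in YY1 siRNA samples, so the groups overlapped (log2 fold change -0.13, edgeR adjusted p 0.528). Ehmt2, also called G9a, which methylates lysine 9 of histone H3, followed at 35.3 ± 0.967 and 36.1 ± 2.54 CPM per kilobase, and no sample of Ehmt2 reached the lowest sample of Kmt5a. Its partner Ehmt1 stood lower, at 57.1 ± 3.37 CPM in the controls and 54.6 ± 3.25 in YY1 siRNA samples, against 194 ± 5.31 and 198 ± 14.0 CPM for Ehmt2. Setd3 came next in level. It methylates actin rather than histones and is a member by its name only.

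The highest log2 fold change in these families was that of Setd4 (0.19, SE 0.265), a gene with little RNA here, and it ran from 0.023 (without YY1 siRNA sample 5) to 0.46 (without control siRNA sample 3). The lowest was that of Kmt2e (-0.13, SE 0.079), a trithorax-type protein for which methyltransferase activity has not been established, and it ran from -0.21 without YY1 siRNA sample 5 to -0.068 without sample 4. Kmt2e stood at 170, 159 and 156 CPM in the controls and 135, 162 and 145 CPM in YY1 siRNA samples. Its groups overlapped, because YY1 siRNA sample 5 lay within the control range. Its exons share 9.31% of their length with Srpk2 on the opposite strand, and the reads of these stretches cannot be told apart without a strand setting. Setd7 and Kmt5b were the 2 members of these families whose 3 YY1 siRNA samples all lay above the 3 control samples. This held for 7.36% of all genes tested. Setd7, a methyltransferase of lysine 4 of histone H3 and of other proteins, stood at 54.5, 54.1 and 55.7 CPM in the controls and 56.8, 64.7 and 58.8 CPM in YY1 siRNA samples (log2 fold change 0.13, edgeR adjusted p 0.506). Kmt5b, which adds further methyl groups to lysine 20 of histone H4, stood at 48.9, 46.9 and 48.1 CPM and at 49.0, 57.8 and 50.3 CPM (0.13, adjusted p 0.543). In both genes YY1 siRNA sample 5 was the highest.

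Among the demethylases, 0 of 16 passed with edgeR, and 2 reached an unadjusted p under 0.05 (12.5%, against 10.8% of all genes tested). Their median log2 fold change was -0.014. Kdm2a, a JmjC demethylase of lysine 36 of histone H3 that binds CpG islands, had the lowest fold change of all members. It lies on the minus strand of chromosome 19 (chr19:4314419-4398285, mm10). Its level was 183, 178 and 179 CPM in the controls and 153, 173 and 147 CPM in YY1 siRNA samples. All 3 YY1 siRNA samples lay below all 3 controls, with sample 5 closest to them (log2 fold change -0.19, SE 0.075, unadjusted p 0.0244, edgeR adjusted p 0.400). Leaving out each sample in turn gave -0.26 to -0.15. Its relative Kdm2b stood at 23.9 ± 0.707 CPM in the controls and 25.1 ± 2.38 CPM in YY1 siRNA samples.

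Kdm7a, which removes methyl groups from lysines 9 and 27 of histone H3, had the highest fold change among the demethylases. It lies on the minus strand of chromosome 6 (chr6:39136623-39206789). Control siRNA samples stood at 95.5, 108 and 106 CPM and YY1 siRNA samples at 108, 123 and 124 CPM. Sample 4 lay within the control range, and samples 5 and 6 above it (log2 fold change 0.20, SE 0.079, unadjusted p 0.0286, edgeR adjusted p 0.416). With a covariate for the share of counts not credited to any gene it was 0.10 (edgeR adjusted p 0.758). Kdm3a, a demethylase of lysine 9 of histone H3 that hypoxia induces, stood at 176 ± 2.21 CPM in the controls and 195 ± 20.0 CPM in YY1 siRNA samples. The 2 demethylases with the highest level per kilobase were Kdm6b, which acts on lysine 27 of histone H3 (34.5 ± 1.51 and 34.2 ± 3.27 CPM per kilobase), and the X-linked Kdm5c, which acts on lysine 4 (26.1 ± 1.73 and 25.9 ± 2.62). Kdm6b lay above Kdm5c in each sample, while Kdm5c, Kdm1a, Kdm3a and Kdm4b, the next in order, overlapped with their neighbours. The Y-linked relative Kdm5d had 1 count in all.

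Among the acetyltransferases, 0 of 8 passed with edgeR, and 1 reached an unadjusted p under 0.05 (12.5%, against 10.8% of all genes tested). Their median log2 fold change was -0.071, with 2 above and 6 below 0. Kat2b, also called PCAF, is an acetyltransferase of the SAGA and ATAC coactivator complexes and the alternative to Kat2a, also called GCN5, in them. Kat2b lies on the plus strand of chromosome 17 (chr17:53566861-53672720). It stood at 18.7, 17.4 and 17.6 CPM in the controls and 21.3, 22.5 and 18.7 CPM in YY1 siRNA samples, of which sample 6 lay just above control siRNA sample 1 (18.67 against 18.66 CPM). The log2 fold change was 0.22 (SE 0.092, unadjusted p 0.0318, edgeR adjusted p 0.420), and 0.16 to 0.29 without each sample in turn. Kat2a, the more abundant of the pair, stood at 59.1, 57.4 and 59.8 CPM in the controls and 54.2, 56.4 and 51.8 CPM in YY1 siRNA samples. Its groups did not overlap, with lower values in YY1 siRNA samples (log2 fold change -0.12, edgeR adjusted p 0.526).

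Per length, Kat2a made up 82.1% ± 0.530 of the pair's level in the controls and 78.5% ± 0.923 in YY1 siRNA samples (SD, n = 3). The exact permutation p of this share was 0.1, two-sided, the smallest that 3 against 3 allows, and 0.65 after adjustment over 13 pairs of related members. Kdm2a made up 84.99% ± 0.530 of its pair with Kdm2b in the controls and 82.5% ± 0.890 in YY1 siRNA samples, also with an exact permutation p of 0.1 and 0.65 after adjustment. In the other 11 pairs the groups overlapped. These shares draw on the same values as the single genes. In the pair Hdac1 and Hdac2, the share of Hdac1 was 31.0% ± 1.29 in the controls and 32.0% ± 1.54 in YY1 siRNA samples (exact permutation p 0.4).

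Kat7, a MYST family enzyme of histones H3 and H4, had the highest level per kilobase of the acetyltransferases, 21.5 ± 0.441 in the controls and 19.6 ± 1.80 in YY1 siRNA samples. Its CPM values were 121, 120 and 116 against 119, 108 and 98.8, so sample 4 lay among the controls and samples 5 and 6 below them. Kat8, the enzyme of the MSL and NSL complexes, was the other acetyltransferase whose YY1 siRNA samples all lay below the controls, by a small margin (22.2 ± 0.169 and 21.3 ± 0.809 CPM).

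Among the deacetylases, 0 of 11 passed with edgeR, 0 had an unadjusted p under 0.05, and in none were the groups apart. Over all genes tested, 10.8% had such a p and in 16.3% the groups were apart. The median log2 fold change of the deacetylases was -0.017. Hdac5, a class II deacetylase that shuttles between nucleus and cytoplasm, had the highest mean level of all members over the 6 samples. It stood at 45.3 ± 2.02 CPM per kilobase in the controls and 46.5 ± 3.29 in YY1 siRNA samples. Its samples overlapped with those of Kmt5a, which stood at 45.6 ± 1.99 and 41.6 ± 3.15 CPM per kilobase. In CPM Hdac5 stood at 402, 413 and 378 in the controls and 436, 410 and 378 in YY1 siRNA samples. Among the deacetylases Hdac2, a class I enzyme of the Sin3, NuRD and CoREST complexes, followed in level. Hdac2 stood at 155, 150 and 153 CPM in the controls and 160, 136 and 138 CPM in YY1 siRNA samples. Sample 4 lay above the controls and samples 5 and 6 below them (log2 fold change -0.08, adjusted p 0.706). The class I enzymes Hdac1 (53.0 ± 3.74 and 52.4 ± 1.07 CPM) and Hdac3 (93.4 ± 1.21 and 93.4 ± 4.73 CPM) had log2 fold changes of -0.02 and -0.00061. The 95% interval for Hdac3 ran from -0.15 to 0.15 and that for Hdac1 from -0.18 to 0.14. The largest values in either direction belonged to Hdac10, a polyamine deacetylase (7.13 ± 0.330 and 8.40 ± 1.09 CPM, log2 fold change 0.23), and Hdac9, a class II enzyme with low level here (6.88 ± 0.746 and 6.34 ± 0.107 CPM, -0.12). Without YY1 siRNA sample 6 the value of Hdac10 was 0.14. With a covariate for the share of counts not credited to any gene it was 0.095. Without control siRNA sample 2 the value of Hdac9 was -0.027.

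In 6 members the YY1 siRNA samples did not overlap with the controls, 3 higher (Kat2b, Setd7, Kmt5b) and 3 lower (Kdm2a, Kat2a, Kat8). These are 11.3% of the members, against 16.3% of all genes tested, with 7.36% higher and 8.91% lower. With 1 sample left out, groups of 3 and 2 separate more often among all genes too. There were 21 such members without YY1 siRNA sample 4, where 36.6% of genes tested were apart, 17 without sample 5 (28.7%) and 10 without sample 6 (23.8%). Leaving out control siRNA sample 1, 2 or 3 gave 7 (20.6%), 9 (22.8%) and 12 members (32.1%).

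**Figure D3:**
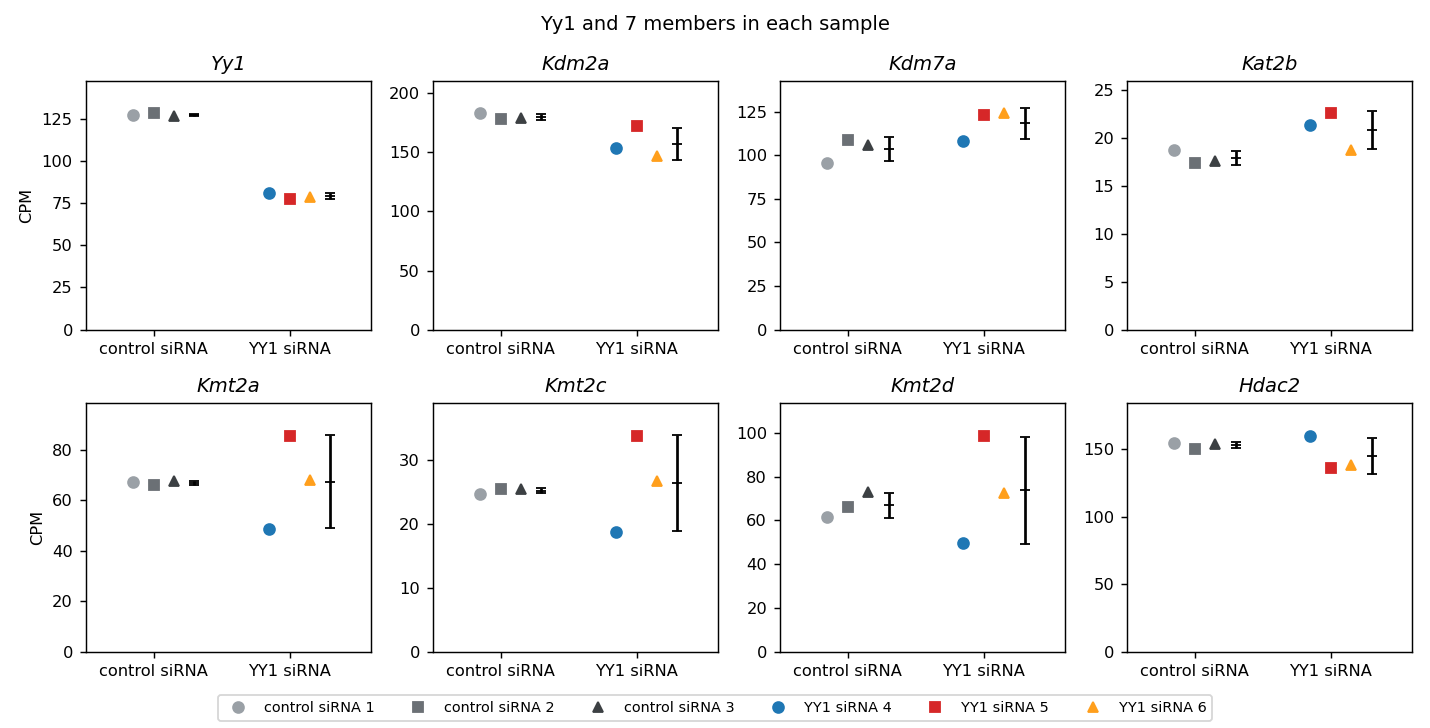
CPM (y axis, from 0) of Yy1 and 7 members in each sample, with the mean and SD of each group (n = 3) at the right of its points. Yy1 falls in all YY1 siRNA samples, while Kmt2a, Kmt2c and Kmt2d are low in YY1 siRNA sample 4, high in sample 5 and close to the controls in sample 6.

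The members spread more widely among the YY1 siRNA samples than among the controls. The log2 range over the 3 YY1 siRNA samples was wider than that over the 3 controls in 47 of 53 members (88.7%, against 71.5% of genes tested), with a median of 0.24 against 0.10 (0.25 and 0.16 over genes tested). In YY1 siRNA sample 4, 26 of 53 members lay below all 3 controls, against 30.1% of genes tested, and 11 above them, against 28.8%. In sample 5 the order was the opposite, with 27 members above all controls, against 29.9% of genes, and 12 below, against 29.1%. In sample 6, 16 lay above, against 36.2% of genes, and 27 below, against 39.2%. In the methyltransferase families, 12 of 18 lay below the controls in sample 4 and 12 of 18 lay above them in sample 5, with median log2 differences from the control mean of -0.13 and 0.15. These values describe single libraries and were not tested.

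Kmt2a, Kmt2c and Kmt2d, singled out after their values were seen, had the largest differences between YY1 siRNA samples 5 and 4 among the members. All 3 encode very large proteins that methylate lysine 4 of histone H3, Kmt2a (also called MLL1) at promoters and Kmt2c and Kmt2d at enhancers. Kmt2a (chr9:44803355-44881296, minus strand) stood at 67.1, 66.1 and 67.6 CPM in the controls and 48.6, 85.6 and 68.0 CPM in YY1 siRNA samples 4, 5 and 6. Kmt2c (chr5:25271798-25498783, minus strand) stood at 24.7, 25.4 and 25.4 CPM in the controls and 18.8, 33.8 and 26.7 CPM in YY1 siRNA samples. Kmt2d (chr15:98831669-98871204, minus strand) stood at 61.8, 66.2 and 73.1 CPM in the controls and 49.7, 98.8 and 72.7 CPM in YY1 siRNA samples. In each of these genes sample 4 lay below the controls and sample 5 above them. Yy1 stood at 81.2 CPM in sample 4 and 77.6 CPM in sample 5. For Kmt2a, Kmt2c and Kmt2d the log2 differences between samples 5 and 4 were 0.82, 0.85 and 0.99. These differences lay at percentiles 98.8, 98.9 and 99.3 of all genes tested. Kmt2b, the fourth of the family, kept the same order at a smaller size, with 46.0, 58.6 and 49.9 CPM in YY1 siRNA samples and 51.9 ± 0.0837 CPM in control. The order was also seen outside the members. Trrap stood at 99.9 and 169 CPM in YY1 siRNA samples 4 and 5, against 136 to 141 CPM in the controls. Ep300 stood at 76.1 and 110 CPM, against 88.3 to 93.8 CPM. Other genes of histone modification did not show it, such as Ezh2 with 59.8 and 54.6 CPM, against 49.5 to 54.8 CPM.

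The group means of Kmt2a, Kmt2c and Kmt2d do not show their spread among the YY1 siRNA samples. The log2 fold changes were 0.01 for Kmt2a (SE 0.181), 0.07 for Kmt2c (SE 0.187) and 0.14 for Kmt2d (SE 0.224), with standard errors above the members' median of 0.080. Without YY1 siRNA sample 4 they were 0.21, 0.28 and 0.36, with edgeR adjusted p values of 0.262, 0.212 and 0.222. Without sample 5 they were -0.20, -0.15 and -0.14. The number of members at an unadjusted p under 0.05 was 14 without sample 4, 11 with higher values and 3 with lower, where 19.1% of genes tested passed (10.7% higher and 8.42% lower). It was 4 without sample 5, all with lower values, where 11.7% of genes passed (6.03% lower). At an adjusted p, 0 members passed without sample 4 (0.335% of genes) or without sample 5 (0.00817%).

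Under the other alternatives the members' count at an unadjusted p under 0.05 is read against that fit's own background. There were 8 members with limma-voom and sample weights, where 15.2% of genes passed, and Kdm2a alone with library size alone, where 11.6% did. There were 3 members each with RLE factors (10.9%), without a filter (9.4% of 17048 genes) and with a minimum of 1 CPM in 3 samples (11%). The count was also 3 with the no-gene share as a covariate (7.7%) and with thinned counts (10.8%). With the covariate these were Kat2b, Kdm2a and Kmt2e, without Kdm7a (unadjusted p 0.170), and in the other 4 fits Kat2b, Kdm2a and Kdm7a. Without control siRNA sample 1 the single member was Kat2b (5.4%), and without control siRNA sample 2 (6.38%) or 3 (11.3%) it was Kdm7a. Without YY1 siRNA sample 6 there were 2, Kat2b and Kdm2a (8.2%). At an adjusted p, 0 members passed in any of these fits. The share of all genes that did was 0.00823% with RLE factors and with the covariate, 0.0576% with library size alone, 0.487% without a filter, 0.0086% with the 1 CPM minimum, 0.181% with sample weights and 0.00833% with thinned counts. It was 0.00817% without control siRNA sample 1 or 2, 0.0164% when control siRNA sample 3 was left out and 0.0245% when YY1 siRNA sample 6 was.

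The genes that differed most between YY1 siRNA samples 5 and 4 have long exons in sum, 16670 bp for Kmt2a, 20291 bp for Kmt2c and 19931 bp for Kmt2d. Across the 53 members, the log2 difference between samples 5 and 4 had a Pearson correlation with log2 exon length of 0.54 (Spearman 0.49), and of 0.39 (0.40) over the 50 members without these 3. Over 12037 genes tested with a gene model it was 0.19 (0.29). Between samples 5 and 6 it was 0.52 (0.52) for the members and 0.32 (0.34) over genes tested. Between samples 6 and 4 it was 0.17 (0.21) for the members and -0.12 (-0.053) over genes tested. Between control siRNA samples 3 and 1 it was -0.034 (-0.066) for the members and -0.19 (-0.21) over genes tested, so a relation to exon length was also present between 2 control libraries. These are correlations across genes of 2 libraries and genes are not independent. The nuclear-retained noncoding RNAs were also lowest in sample 4: the summed level of 6 such RNAs was 1535 CPM there and up to 2569 CPM in the other YY1 siRNA samples, against 1778 to 2306 CPM in control. Of the 6, Malat1 and Neat1 carry nearly all of this. Kcnq1ot1 stood at 4.77 to 11.9 CPM over the 6 samples, and Meg3, Miat and Xist stood under 1 CPM. Counts not credited to any gene made up 7.87%, 10.7% and 11.3% of the total in samples 4, 5 and 6. The part of these measures in the spread of the Kmt2 genes was not tested.

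**Figure D4:**
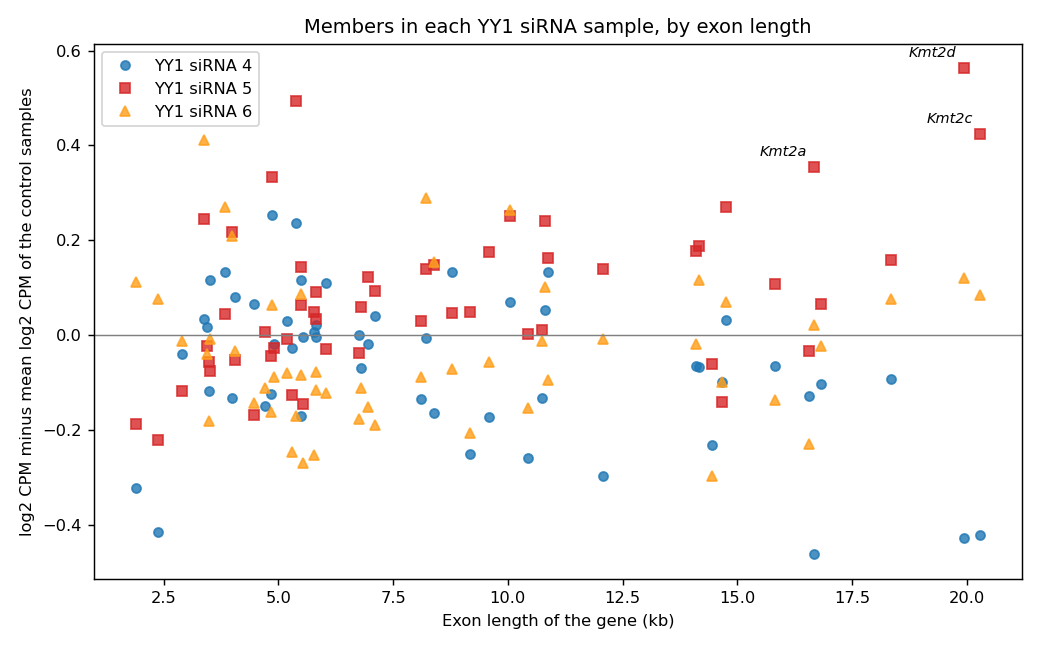
Difference of each of the 53 members from the mean of the control samples (y axis, log2 CPM) against the exon length of the gene (x axis, kb), with 1 symbol per YY1 siRNA sample. For Kmt2a, Kmt2c and Kmt2d sample 5 lies above and sample 4 below the controls, with Kmt2d 0.99 apart on the log2 scale. Not all long genes show this, such as Kdm5b (16555 bp), at -0.034 in sample 5 and -0.13 in sample 4.

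Other genes of histone methylation and acetylation gave 0 calls with edgeR among 102 tested from 5 lists, and 7 had an unadjusted p under 0.05, 4 with higher and 3 with lower values (5.38% and 5.46% of all genes tested). None of 18 further methyltransferases had such a p. Of 7 further demethylases 2 did, both with lower values in YY1 siRNA samples. Hr, the hairless corepressor, which demethylates lysine 9 of histone H3, stood at 27.0, 27.1 and 24.1 CPM in the controls and 19.6, 20.6 and 15.5 CPM in YY1 siRNA samples. The groups were apart (log2 fold change -0.49, edgeR adjusted p 0.154). Phf8, a demethylase encoded on the X chromosome, stood at 32.9 ± 1.09 and 26.7 ± 2.68 CPM (-0.30, adjusted p 0.265). Of 28 further acetyltransferases and subunits of their complexes 3 had such a p, Tada2b of the SAGA complex with lower values (22.6 ± 1.30 and 18.9 ± 1.63 CPM) and Ing4 and Brpf3, subunits of MYST acetyltransferase complexes, with higher ones. Of 34 sirtuins and deacetylase complex subunits 1 did, the histone chaperone Rbbp4 (237 ± 25.6 and 272 ± 20.8 CPM). Of 15 subunits of the COMPASS complexes, which carry the Kmt2 and Setd1 enzymes, 1 did. This was Hcfc1, which stood at 116, 116 and 109 CPM in the controls and 141, 165 and 138 CPM in YY1 siRNA samples (log2 fold change 0.38, edgeR adjusted p 0.147, DESeq2 adjusted p 0.0386).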

How the data were processed

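RNA-seq of KMWT1 cells gave 3 control siRNA and 3 YY1 siRNA samples. The authors deposited raw read counts by gene symbol, with 1 table per sample. Per the submitters' processing notes, STAR 2.6.1a, edgeR 3.30.0 and build mm10 were used. The sources used here do not name the counting program, its annotation or its strand setting, and without strand a gene cannot be told from one that overlaps it on the other strand. Exons of 21 of the 53 members share bases with another GENCODE M21 gene on either strand. Setd1a does so over 51.8% of its exon length with Gm49388, which lies on the same strand, so a strand setting would not separate them. The 2 rows that name no gene (7.87% to 11.3% and 1.01% to 1.15% of a sample's counts) count toward neither library sizes nor tests. Of the 6 tables, 5 carry a mark of having been combined, all but the table of YY1 siRNA sample 6.

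The main test was edgeR's two-sided quasi-likelihood F test (version 4.0.16, under R 4.3.3) on the deposited counts of all genes after filterByExpr and TMM normalization, with robust estimation and Benjamini-Hochberg adjustment (threshold 0.05). Values are CPM as mean ± SD. Intervals cover the spread between samples. Alternatives were RLE factors, library size alone, other filters, DESeq2 1.42.0, limma-voom (limma 3.58.1) with and without sample weights, the no-gene share as a covariate, thinned counts and leaving out each sample. Steps were tested on simulated counts. The members and lists were chosen with earlier results of these data known, and the pair shares, sample spread and exon-length relation were added after the values were seen. Genes are named by this rule: Yy1, members with an unadjusted p under 0.05, the 2 with the highest level per kilobase and the largest rise and fall in each family group, the members nearest the limit of 60 counts, members past the adjusted threshold in any alternative (0), and up to 3 genes per pathway list by p. Setd7, Kmt5b, Kmt2a, Kmt2c, Kmt2d, Hdac1 and Hdac3 are outside this rule and were picked, with their fold changes, after their values were seen. The other members named are given with their levels, as are Trrap, Ep300 and Ezh2 of the pathway lists, which were also picked after their values were seen.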

Additional observations from a re-analysis of the deposited data

Results flagged for a closer look

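Counts not credited to any gene were left out of every test here. Their share of the library lay above all 3 control samples (at most 9.03%) in YY1 siRNA sample 5 (10.7%) and sample 6 (11.3%). With this share as a covariate in edgeR, 0 of 53 members passed. The log2 fold changes of Kmt2a, Kmt2c and Kmt2d were then -0.27, -0.22 and -0.22, with adjusted p values of 0.664, 0.729 and 0.757.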

How the results depend on the processing

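No paired analysis was possible because the control and YY1 siRNA samples share no replicate number. The number of changed members was 0 under all 9 other settings and without each of the 6 samples, and Yy1 passed in each of these (log2 fold change -0.70 to -0.67 without each sample). Changed genes numbered 7 with library size alone, 83 without a filter on low counts, 19 under DESeq2 and 22 when samples were weighted. Leaving out each sample gave 1 to 41 (41 lacking YY1 siRNA sample 4, 3 lacking YY1 siRNA sample 6, 2 lacking control siRNA sample 3). Members at an unadjusted p under 0.05 numbered 1 with library size alone, 8 when samples were weighted and 1 to 14 without each sample (1 without each control). Members with groups apart numbered 7 to 21 without each sample, beside 20.6% to 36.6% of all genes tested. Other pathway genes called were 2 without a filter (Hr and Hcfc1), 1 with DESeq2 and 1 with sample weights (Hcfc1), and 0 without each sample. The median of the methyltransferase families was -0.097 to 0.074 without each sample, the lowest without YY1 siRNA sample 5. The shorter motif AANATGG was in 10 members. Over the fits without each sample, 24 of 53 members took both signs, with main log2 fold changes of -0.060 to 0.14. Hdac1, Hdac3, Setd3 and Kmt2a to Kmt2d were among them. The share of all genes tested that did so was not computed, so the count is not read as a trait of the members. Of the genes named by rule, these changed sign: with sample weights Kdm5c (0.0054) and Kdm6b (0.016), with the no-gene covariate Hdac2 (0.0076), Kdm5c (0.051) and Kdm6b (0.0059), and without single samples Kdm5c (-0.072 to 0.058), Kdm6b (-0.085 to 0.046), Ehmt2 (-0.0021 to 0.083) and Hdac5 (-0.0062 to 0.083). For these settings the cause was not tested.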
